A study of Mus musculus with 16 samples.

Results

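The core circadian clock genes were followed one by one through the deposited tables of a mouse colitis study. They were taken by symbol from a list of 10 (Arntl, Npas2, Cry1, Ciart, Nr1d1, Nr1d2, Per1, Per2, Per3 and Dbp), and 9 of the 10 were found among the 5171 distinct genes of the 4 tables. Per1 was in none of the tables and was not analysed here. RNA had been sequenced from whole colon tissue of male C57BL/6 mice, either wild type (WT) or with Smarcad1, a chromatin remodelling ATPase, deleted in the intestinal epithelium of a single line by Cre recombinase under the villin promoter (KO). Control mice of both genotypes, 3 WT and 3 KO, received no dextran sodium sulphate (DSS), while 5 WT and 5 KO colitis mice drank 1% DSS, which damages the colon lining, for 15 days. All 4 groups, controls included, had been given an enriched microbiota from donor females from 2 weeks before colitis induction. The age of the mice and the hour of day at which tissue was taken are not given in the sources used here. The methods state that samples of the cohorts were collected in mixed order within each experiment. Whether control and colitis mice were taken at the same hour is not stated, and the part of the hour in the differences below was not tested.

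The mammalian clock is a feedback loop of transcription. CLOCK or its paralogue NPAS2 pairs with ARNTL (BMAL1) and activates genes through E-box motifs, among them the Per and Cry genes, Ciart, Nr1d1, Nr1d2 and Dbp. PER, CRY and CIART proteins then inhibit that activator, and NR1D1 and NR1D2 (REV-ERB alpha and beta) repress Arntl and Npas2 through RORE motifs. Transcripts of Dbp, Nr1d1 and Ciart peak at another time of day than those of Arntl, Npas2 and Cry1, and the loop runs in the cells of the gut as in most tissues.

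Each table lists the genes that the authors called in 1 comparison, and gives for each gene 4 group means of its log2 RPM, the reads of a gene scaled to a common library total. No value of a single mouse was used here. The spread between mice was therefore not measured, no difference below was tested, and each is a description of group means. The standard errors (SE) and 95% intervals given are of read counting alone. The geometric mean library size was 8.005 M to 10.1 M reads, and none of the 9 clock genes had a mean at or under 3 reads per library. The mean of Smarcad1 was lower in KO by 1.18 on the log2 scale in control (5.77 in WT and 4.59 in KO) and by 1.13 in colitis (5.68 and 4.55). The gene is expressed also outside the epithelium, and the deletion removes only part of its exons. Where the remaining reads in KO come from was not tested. The series text speaks of small intestine and the sample labels of colon. Of the colon epithelium list, 3 of 8 genes were in the tables (Car1, Car4 and Aqp8), with a summed level of 6857 RPM in WT control, against 2.34 RPM for Fabp6, the 1 of 7 small intestine genes listed.

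With colitis, the activators Arntl and Npas2 and the repressor Cry1 were lower in both genotypes, while Dbp and Ciart were higher by more than 3-fold in WT and more than 13-fold in KO. In control mice, Dbp and Ciart were lower in KO than in WT by 2.04-fold and 2.29-fold, and in colitis mice they were higher in KO by 1.96-fold and 1.93-fold. Neither gene was among the authors' calls between genotypes in either condition, and Ciart had only 7.88 reads per library in KO control. Of the 9 genes, 8 had a colitis difference of the same sign in both genotypes that was larger in KO, against 48.2% of all genes of the tables. Per2 and Per3, among the 8, were listed only in the table of colitis in KO, so how they entered favoured a larger KO difference. Dbp and Ciart are on different chromosomes, and their patterns over the 4 groups were closer to each other than to that of any other gene.

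**Figure D1:**
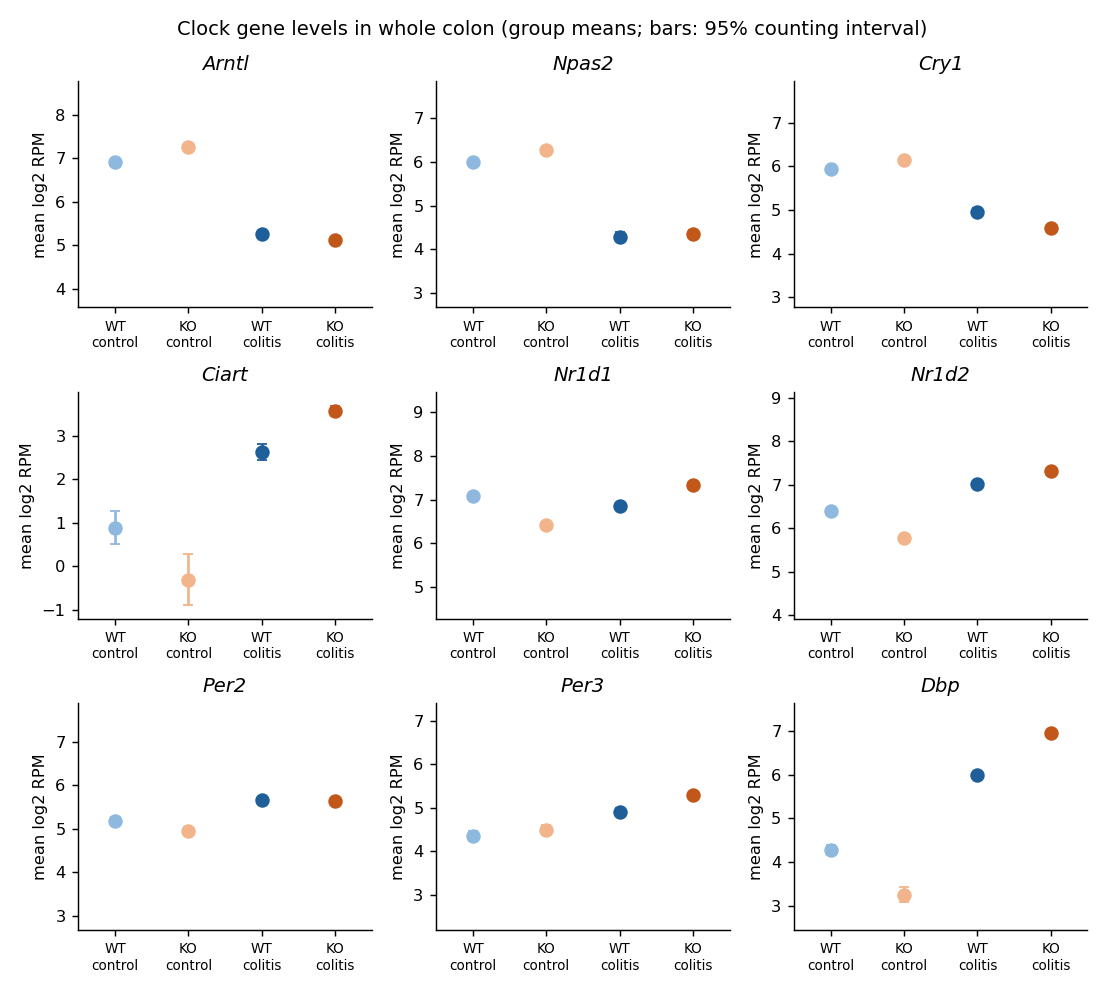
Mean log2 RPM of each of the 9 clock genes in WT control (n = 3), KO control (n = 3), WT colitis (n = 5) and KO colitis (n = 5), with every vertical axis spanning the same log2 range. Bars are 95% intervals of read counting and are mostly smaller than the points. Arntl, Npas2 and Cry1 are lower in both colitis groups, and Dbp and Ciart run from KO control, the lowest, to KO colitis, the highest.

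The promoter windows below, from 250 bases before to 50 after the start, are shown because the loop acts on its own genes through short motifs near their starts, and because they differ between genes with like patterns in these data. They are RefSeq sequences (GRCm38.p6), written along the gene's strand, with exact matches on either strand in capitals. The capitals mark the E-box CACGTG in Ciart and Cry1, the D-box TTANGTAA in Per3, and the RORE core AGGTCA in Nr1d2 and Arntl. Dbp holds no match in its window. Ciart is at chr3:95882179-95882478 (minus strand), Cry1 at chr10:85185005-85185304 (minus), Per3 at chr4:151044616-151044915 (minus), Nr1d2 at chr14:18239057-18239356 (minus), the downstream of the 2 Arntl windows at chr7:113207261-113207560 (plus) and Dbp at chr7:45704997-45705296 (plus).
Ciart: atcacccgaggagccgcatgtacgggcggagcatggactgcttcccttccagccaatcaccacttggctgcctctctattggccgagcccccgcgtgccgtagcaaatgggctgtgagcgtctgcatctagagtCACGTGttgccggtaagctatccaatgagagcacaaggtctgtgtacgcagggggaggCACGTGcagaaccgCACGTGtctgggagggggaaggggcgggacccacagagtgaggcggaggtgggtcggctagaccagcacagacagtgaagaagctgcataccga
Cry1: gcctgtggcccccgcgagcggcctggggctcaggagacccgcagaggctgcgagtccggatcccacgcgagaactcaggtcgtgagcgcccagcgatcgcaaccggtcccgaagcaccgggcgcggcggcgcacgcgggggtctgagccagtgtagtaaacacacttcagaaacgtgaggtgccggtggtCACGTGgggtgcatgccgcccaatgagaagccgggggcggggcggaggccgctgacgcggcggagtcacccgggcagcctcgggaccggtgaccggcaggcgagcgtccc
Per3: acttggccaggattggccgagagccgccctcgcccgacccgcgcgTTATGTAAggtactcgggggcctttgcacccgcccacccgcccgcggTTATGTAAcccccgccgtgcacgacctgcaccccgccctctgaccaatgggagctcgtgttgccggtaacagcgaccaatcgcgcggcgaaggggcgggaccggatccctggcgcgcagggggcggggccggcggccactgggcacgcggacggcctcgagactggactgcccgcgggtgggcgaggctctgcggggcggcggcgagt
Nr1d2: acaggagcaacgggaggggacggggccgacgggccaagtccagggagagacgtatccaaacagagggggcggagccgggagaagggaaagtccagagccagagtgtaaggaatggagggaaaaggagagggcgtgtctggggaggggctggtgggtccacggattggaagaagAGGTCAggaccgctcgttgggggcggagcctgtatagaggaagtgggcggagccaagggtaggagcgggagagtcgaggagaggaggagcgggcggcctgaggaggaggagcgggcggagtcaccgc
Arntl: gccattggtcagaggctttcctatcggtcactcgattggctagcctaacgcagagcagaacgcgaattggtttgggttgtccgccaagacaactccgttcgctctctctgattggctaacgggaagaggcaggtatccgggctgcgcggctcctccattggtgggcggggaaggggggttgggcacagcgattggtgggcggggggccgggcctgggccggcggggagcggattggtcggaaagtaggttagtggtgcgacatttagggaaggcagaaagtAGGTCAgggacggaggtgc
Dbp: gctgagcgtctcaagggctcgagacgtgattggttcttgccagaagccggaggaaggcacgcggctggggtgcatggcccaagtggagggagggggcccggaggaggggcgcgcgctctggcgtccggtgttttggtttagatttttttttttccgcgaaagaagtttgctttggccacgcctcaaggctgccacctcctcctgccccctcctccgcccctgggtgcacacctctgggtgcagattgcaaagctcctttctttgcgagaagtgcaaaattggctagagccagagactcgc

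Ciart held 3 E-boxes, which begin 116, 58 and 44 bases before the start. At least 1 E-box was found in 7.15% of all 32851 promoter windows, and 3 or more in 0.0883%. Cry1, whose level moved opposite to that of Ciart, held 1 E-box 60 bases before its start. Per3 held 2 D-boxes, the site of DBP and its relatives, 205 and 158 bases before the start, while 2.32% of all windows held at least 1. The RORE core stood 77 bases before the start of Nr1d2 and 32 bases after that of Arntl, and 16.3% of all windows held it. Dbp, Nr1d1 and Npas2 held none of these letters in their windows, which says nothing of motifs elsewhere. In all, 8 of the 9 clock genes had a window, and the search covered both strands. The E-box reads the same on both strands, and no match of 1 motif overlapped a match of another.

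**Figure D2:**
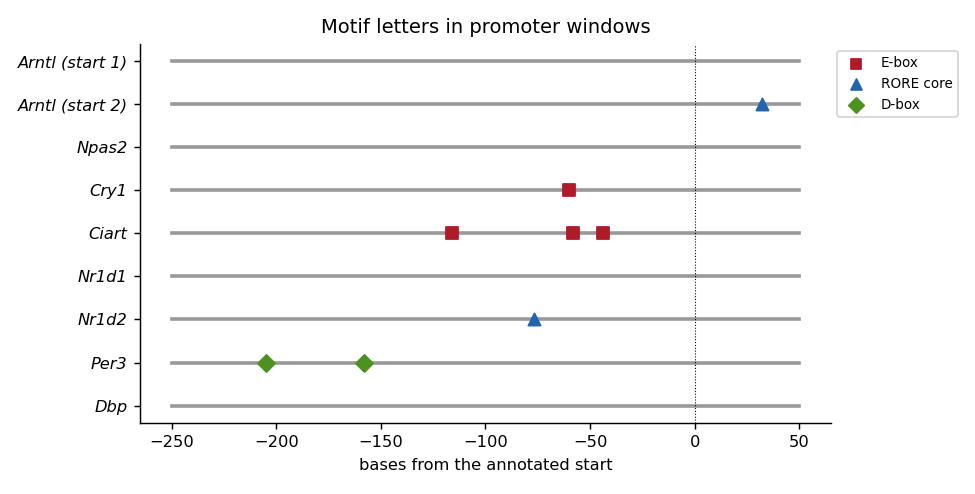
Places of the E-box, RORE core and D-box letters in the 9 promoter windows of 8 clock genes, by distance in bases from the annotated start (dotted line), each mark at the first base of a match. Ciart carries 3 E-boxes and Per3 carries 2 D-boxes, and Dbp, Nr1d1 and Npas2 have no mark.

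Arntl encodes the obligate partner in the activating heterodimer and is protein coding on chromosome 7 from 113207465 to 113314126 (plus strand, GRCm38). Its mean level was 6.91 log2 RPM in WT control, 7.26 in KO control, 5.26 in WT colitis and 5.11 in KO colitis, or 1218, 1494, 306 and 340 reads per library. Both colitis means lay below both control means, and KO control was the highest. Colitis minus control was −1.66 (SE 0.044) in WT, 3.15-fold lower, and −2.15 (SE 0.041) in KO, 4.44-fold lower. Exons of Arntl share 33 bases, 0.44% of their length, with Gm45355 on the opposite strand. Whether the counting used strand is not given in the sources used here.

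Npas2, the paralogue of Clock that takes its place beside ARNTL, lies on chromosome 1 from 39193731 to 39363236 (plus strand). Its mean level was 5.99 log2 RPM in WT control, 6.27 in KO control, 4.29 in WT colitis and 4.34 in KO colitis. Its pattern followed that of Arntl at a distance of 0.09, the root mean square difference of the 4 centred group means in log2. Colitis minus control was −1.71 (SE 0.061) in WT and −1.93 (SE 0.055) in KO. In colitis the KO mean exceeded the WT mean by 0.06, with a counting interval of −0.08 to 0.19.

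Cry1 encodes a cryptochrome that inhibits the activator, and its transcript peaks later than those of the Per genes. It lies on chromosome 10 from 85131700 to 85185064 (minus strand). Cry1 had mean levels of 5.94 log2 RPM in WT control, 6.16 in KO control, 4.96 in WT colitis and 4.59 in KO colitis. Like Arntl it was highest in KO control and lowest in KO colitis, an order held by 11.1% of all genes of the tables. Colitis minus control was −0.98 (SE 0.053) in WT, just inside 2-fold, and −1.57 (SE 0.052) in KO. KO minus WT was 0.22 (SE 0.046) in control and −0.38 (SE 0.058) in colitis.

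Ciart encodes CHRONO, a repressor that binds ARNTL, and lies on chromosome 3 from 95878503 to 95882251 (minus strand). It was the least abundant of the 9 genes by reads, with 18.7 reads per library in WT control, 7.88 in KO control, 49.2 in WT colitis and 117 in KO colitis. Its mean level was 0.89, −0.31, 2.62 and 3.57 log2 RPM in the same order. The 4 means were well spread, with KO control lowest and KO colitis highest. Colitis minus control was 1.73 (SE 0.214) in WT, 3.32-fold, and 3.88 (SE 0.303) in KO, 14.7-fold. KO minus WT was −1.19 in control, with a counting interval of −1.89 to −0.50, and 0.95 in colitis, with an interval of 0.74 to 1.16.

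Nr1d1 encodes REV-ERB alpha, the repressor of Arntl, and lies on chromosome 11 from 98767932 to 98775333 (minus strand). Nr1d1 had mean levels of 7.08 log2 RPM in WT control, 6.43 in KO control, 6.85 in WT colitis and 7.33 in KO colitis, from 840 to 1587 reads per library. It was the 1 gene of the 9 whose colitis difference changed sign between genotypes, at −0.23 (SE 0.031) in WT and 0.90 (SE 0.033) in KO. Nr1d1 was listed in neither colitis table, only in that of KO against WT in control, so the authors called neither of these differences. KO minus WT was −0.65 (SE 0.036) in control and 0.48 (SE 0.027) in colitis. Exons of Nr1d1 share 263 bases, 8.55% of their length, with Thra on the opposite strand. Thra, a thyroid hormone receptor gene, had mean levels of 7.48, 7.58, 6.76 and 6.97 in the same order of groups, so it was higher in both control groups than in both colitis groups.

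Nr1d2 encodes REV-ERB beta, which shares that task, and lies on chromosome 14 from 18204054 to 18239127 (minus strand). Its mean level was 6.40 log2 RPM in WT control, 5.78 in KO control, 7.01 in WT colitis and 7.31 in KO colitis. Dbp, Ciart and Nr1d2 thus shared 1 order, rising from KO control through WT control and WT colitis to KO colitis, as did 11.9% of all genes of the tables. In colitis Nr1d2 was higher by 0.62 (SE 0.035) in WT and 1.52 (SE 0.040) in KO. KO minus WT was −0.61 (SE 0.046) in control and 0.29 (SE 0.026) in colitis. Nr1d2 was the only one of the 9 genes listed in 3 tables, those of colitis in each genotype and that of KO against WT in control.

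Per2 and Per3 encode period proteins, which inhibit the activator together with the cryptochromes, and had the smallest colitis differences of the 9 genes in KO. Per2, on chromosome 1 from 91415982 to 91459324 (minus strand), had mean levels of 5.18 log2 RPM in WT control, 4.94 in KO control, 5.65 in WT colitis and 5.63 in KO colitis. Per3, on chromosome 4 from 151003652 to 151044665 (minus strand), had 4.35, 4.49, 4.90 and 5.30. Both genes were higher in colitis in each genotype, Per2 by 0.47 in WT and 0.69 in KO, and Per3 by 0.55 and 0.81. The KO and WT means could not be told apart by read counting for Per2 in colitis (difference −0.02, interval −0.11 to 0.06) or for Per3 in control (0.14, −0.02 to 0.30). Both genes were listed only in the table of colitis in KO.

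Dbp, a transcription factor of the PAR bZIP family, is a direct target of the activator and carries its rhythm to output genes through D-boxes. It lies on chromosome 7 from 45705088 to 45710203 (plus strand). Mean levels of Dbp were 4.28 log2 RPM in WT control, 3.25 in KO control, 6.00 in WT colitis and 6.97 in KO colitis, or 196, 92.9, 513 and 1239 reads per library. Both colitis means lay above both control means. The colitis difference was 1.72 (SE 0.066) in WT, 3.30-fold, and 3.72 (SE 0.088) in KO, 13.2-fold. KO minus WT was −1.03 (SE 0.105) in control and 0.97 (SE 0.034) in colitis, the latter just inside 2-fold. Exons of Dbp share 539 bases, 18.0% of their length, with Sphk2 on the opposite strand, whose own level was not analysed here.

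Read against all genes of the tables, which had themselves been picked for a difference, the clock genes stood as follows. In WT, 2 of the 9 were higher in colitis by at least 2-fold (Dbp and Ciart), where 18.4% of all genes were, and 2 were lower (Arntl and Npas2), where 13.0% were. In KO, 3 of the 9 were higher (Dbp, Nr1d2 and Ciart) against 16.0% of all genes, and 3 were lower (Arntl, Npas2 and Cry1) against 12.6%. The median absolute colitis difference of the 9 genes was 0.98 in WT and 1.57 in KO, and over all genes 0.64 and 0.59. Part of this was fixed by how the genes entered. Of the 9, 8 were in the table of colitis in KO, which lists 4056 of the 5171 genes. In that of WT, which lists 3261, there were 6. All 6 genes listed in both colitis tables (Dbp, Nr1d2, Ciart, Arntl, Npas2 and Cry1) had the larger difference in KO, as did 36.8% of the 2182 genes listed in both. The KO difference on the log2 scale was 2.47 times the WT difference for Nr1d2, 2.24 times for Ciart, 2.16 times for Dbp and 1.13 times for Npas2, the smallest of the 6. The KO difference minus the WT difference was 2.00 (SE 0.110) for Dbp, 2.14 (SE 0.370) for Ciart, 1.13 for Nr1d1 and 0.91 for Nr1d2. It was 0.21 for Per2 and 0.26 for Per3, and −0.49 for Arntl, −0.22 for Npas2 and −0.59 for Cry1, with a median absolute value of 0.59 over the 9 genes and 0.20 over all genes.

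**Figure D3:**
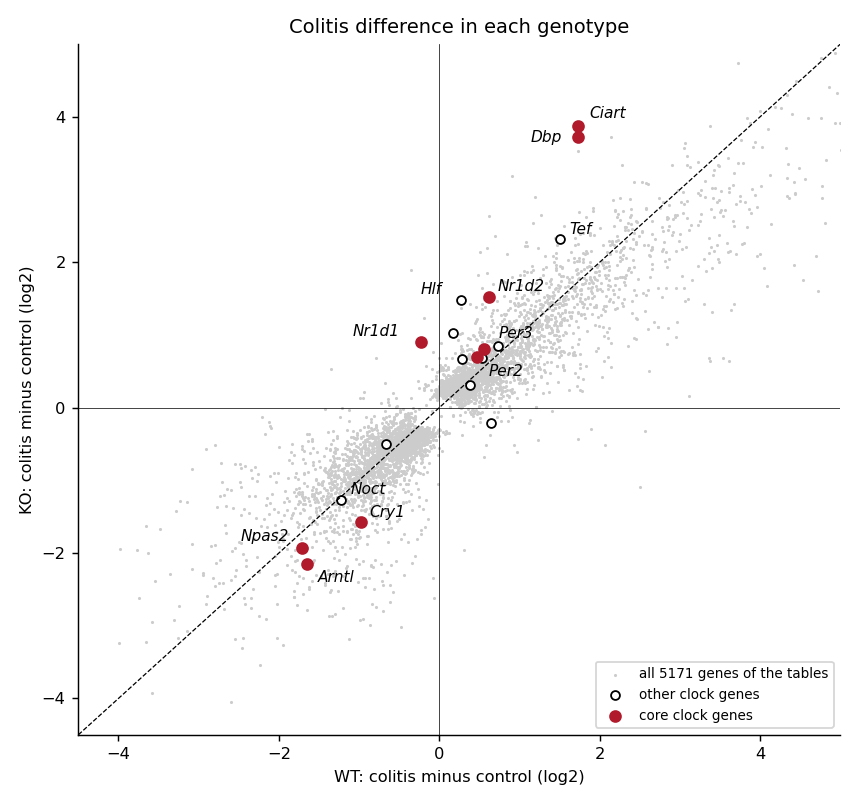
Colitis minus control in KO against the same difference in WT, both on the log2 scale, for the 9 core clock genes (red), 10 other clock genes (open) and all 5171 genes of the tables (grey, of which 31 lie outside the axes). The dashed line marks equal differences. Dbp and Ciart, at 1.72 and 1.73 in WT and 3.72 and 3.88 in KO, sit far above it, and Arntl, Npas2 and Cry1 sit below it.

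Between genotypes, KO minus WT in control was at least 2-fold lower for 2 of the 9 genes (Dbp and Ciart), against 0.735% of all genes of the tables, and at least 2-fold higher for 0 of 9, against 1.08%. In colitis 0 of 9 passed 2-fold in either direction, against 1.49% of all genes higher and 2.9% lower in KO. The median absolute difference of the 9 was 0.35 in control and 0.38 in colitis, and over all genes 0.13 and 0.16. The sign was negative in control and positive in colitis for Dbp, Ciart, Nr1d1 and Nr1d2, and positive in control and negative in colitis for Arntl and Cry1. The share of all genes whose sign reversed in either way was not computed. The tables of KO against WT listed Nr1d1 and Nr1d2 in control and none of the 9 in colitis, so Dbp and Ciart were not among the authors' calls between genotypes in either condition. These genotype differences use the same group means as the colitis differences and are not further evidence for them.

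**Figure D4:**
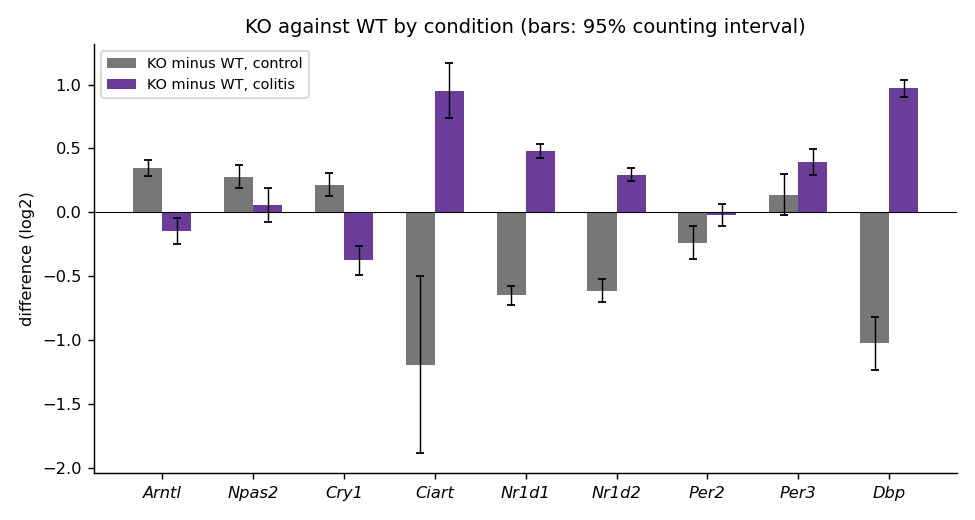
KO minus WT on the log2 scale for each clock gene in control mice (grey) and colitis mice (purple), with 95% intervals of read counting that leave out the spread between mice. Dbp, Ciart, Nr1d1 and Nr1d2 lie below 0 in control and above 0 in colitis.

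Levels were compared between genes only after division by the length of the merged exons, as log2 RPKM. In WT control Nr1d1 was the most abundant at 5.46, followed by Cry1 (4.20), Arntl (4.00), Nr1d2 (3.96), Npas2 (3.73), Dbp (2.69), Per2 (2.63), Per3 (1.08) and Ciart (−0.29). The order of Cry1 and Arntl turned when the longest transcript was used as the length. In KO colitis Nr1d1 was at 5.71, Dbp at 5.39 and Nr1d2 at 4.87, and the order of Nr1d1 and Dbp turned with the longest transcript as length (5.89 and 6.09). Arntl was at 2.20, Npas2 at 2.08 and Per3 at 2.03 in KO colitis, and their order turned as well, with 3.11, 2.26 and 2.71 on that length.

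Ratios of a gene of the Dbp side to one of the Arntl side within a group do not depend on library scaling. The log2 ratio of Dbp to Arntl, corrected for length, was −1.31 in WT control, −2.68 in KO control, 2.07 in WT colitis and 3.19 in KO colitis. Dbp was thus below Arntl in both control groups and above it in both colitis groups. Of the 18 ratios of Dbp, Ciart, Nr1d1, Nr1d2, Per2 or Per3 to Arntl, Npas2 or Cry1, the median difference between colitis and control was 2.24 in WT and 3.08 in KO. KO minus WT had a median of −0.91 in control, from −1.54 to −0.08, and of 0.65 in colitis, from −0.08 to 1.35. The sides were formed with the direction of the genes known, so these ratios restate the differences of the single genes, and the 18 share genes and are not separate measurements.

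**Figure D5:**
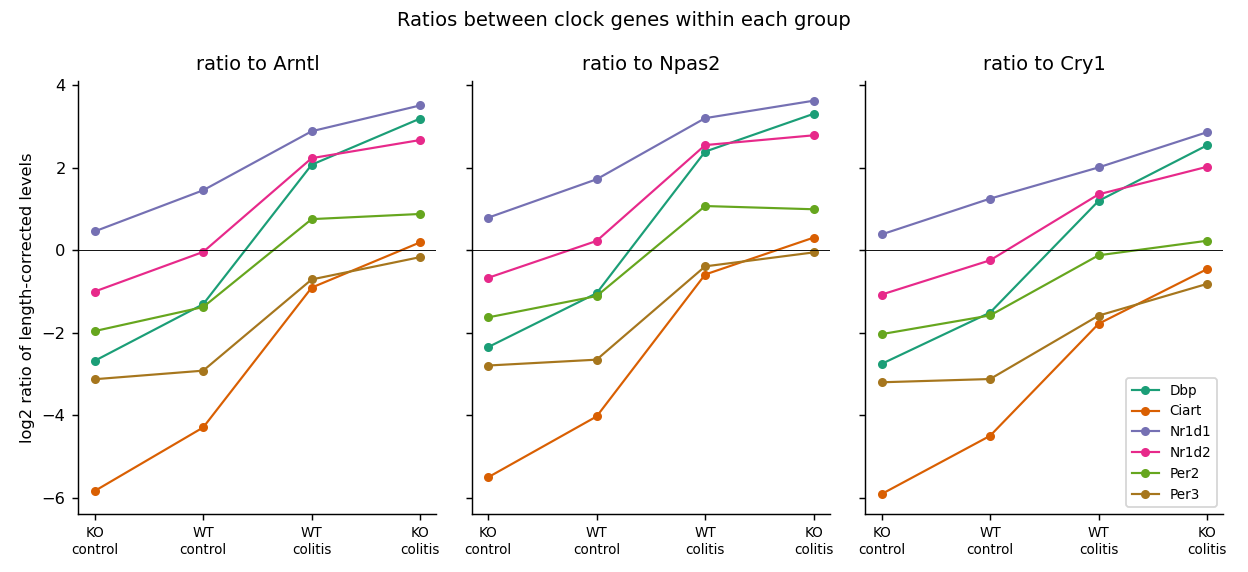
Log2 ratios of length-corrected levels within each group, of 6 clock genes to Arntl, Npas2 and Cry1, with lines joining the values of 1 pair. From KO control on the left to KO colitis on the right most lines climb, that of Dbp to Arntl from −2.68 to 3.19.

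Of 24 other genes of the clock, 10 were in the tables. In WT 1 of the 10 was higher in colitis by at least 2-fold, against 18.4% of all genes of the tables, and 1 was lower, against 13.0%. In KO 3 of the 10 were higher, against 16.0%, and 1 was lower, against 12.6%. Between genotypes none of the 10 passed 2-fold in either condition, and few of all genes did. In control 1.08% of all genes were higher and 0.735% lower in KO, and in colitis 1.49% and 2.9%. Tef and Hlf, the PAR bZIP relatives of Dbp, had the same order of groups as Dbp. So did Bhlhe41 and Nampt, which are not of that family, and 11.9% of all genes of the tables. The mean level of Tef was 5.71 log2 RPM in WT control, 5.24 in KO control, 7.21 in WT colitis and 7.56 in KO colitis, and that of Hlf was 2.96, 2.26, 3.22 and 3.75. Colitis minus control was 1.51 in WT and 2.32 in KO for Tef, and 0.27 and 1.48 for Hlf. Nfil3, a repressor that competes with these factors for D-boxes, had mean levels of 3.92, 4.06, 4.56 and 3.85, so that colitis minus control was 0.64 in WT and −0.21 in KO. Bhlhe41, which encodes the repressor DEC2, was higher in KO colitis, at 3.18, than in the other 3 groups, at 2.15 to 2.38. Noct, a rhythmic output gene, was lower in colitis by 1.22 in WT and 1.27 in KO.

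Among 4878 genes with means over 3 reads per library in every group, clock genes left out, the pattern of Arntl was most like that of 1700030A11Rik (distance 0.08), Cyp2c55 (0.09) and Unc5d (0.10). That of Cry1 was most like AC173482.6 (0.03), Hist1h1e (0.05) and AI480526 (0.06), and that of Nr1d1 most like Gpr34 (0.08), Egln3 (0.15) and Pms1 (0.15). For Dbp and Ciart no such close match was found, the nearest being Ms4a4b at 0.35 and 0.38 and Ms4a4c at 0.39 and 0.41. Next came Ces2f for Dbp (0.40) and AC238811.2 for Ciart (0.44). The distance of Dbp to Ciart was 0.07. With 4 group means per gene, likeness of this kind is a weak description.

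Summed levels of cell type markers also differed between control and colitis. In whole tissue, fewer cells of a type and less RNA per cell cannot be told apart. The 3 colon epithelium genes summed to 6857 RPM in WT control, 6606 in KO control, 3597 in WT colitis and 3235 in KO colitis. All 7 neutrophil genes were listed, summing to 4.20, 4.25, 197 and 52.4 RPM, with 4 of the 7 at or under 3 reads per library in WT control. For 5 of 6 fibroblast genes the sums were 2555, 2479, 4935 and 3670 RPM, for the 4 T cell genes 17.0, 15.9, 48.6 and 50.3, for 2 of 8 smooth muscle genes 3619, 3358, 2345 and 2316, and for the 5 enteric neuron genes 156, 137, 97.2 and 73.3. None of 4 B cell genes was in the tables. Their part in the clock gene differences was not tested.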

How the data were processed

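RNA was measured in 16 libraries of whole colon, grouped by sample title. The authors mapped reads to GRCm38 with HISAT2 2.1.0, kept uniquely mapped reads, removed reads over ribosomal RNA, counted over the exons of merged transcripts in SeqMonk and ran DESeq2 on the raw counts. The values they deposited are group means of log2 RPM for genes with an adjusted p-value under 0.05 in a comparison. The deposited tables also hold those adjusted p-values, which were neither used nor printed.

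Everything else was computed here in Python 3.11.15 with numpy 2.4.6 and pandas 2.3.3. Differences are between the authors' means on the log2 scale, which were not corrected for length. Tests on single libraries, including a genotype by colitis interaction, had been planned and none was run, because the deposited tables hold only group means. A supplement of the study gives counts for each sample, and it was not used here. The libraries' geometric mean size was recovered from the lowest means, 100% of which lay within 0.002 of the steps that whole reads give, with a count of 0 entered as 0.9 read. Counting errors follow from these reads by the Poisson rule and leave out the spread between mice. Lengths, overlaps and gene types came from GENCODE M21, and promoters from RefSeq. Genes were named by membership in the clock lists, plus the 3 nearest by root mean square distance of centred means for Dbp, Nr1d1, Ciart, Arntl and Cry1. The members and lists were chosen with earlier results of these data known, and the count over genes in both colitis tables was added after the values were seen. The scripts were tested on simulated data. A further gene of the colon epithelium list is not reported here.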

Additional observations from a re-analysis of the deposited data

How the results depend on the processing

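Each of the 45 gene differences of the 9 clock genes kept its direction when the median or the trimmed mean of all genes was subtracted. Raising means under 3 reads to 3 reads changed nothing, because no clock gene had such a mean. Each difference also stayed within 0.2 on the log2 scale. That was fixed in advance, since the shifts were at most 0.19 for the median and 0.04 for the trimmed mean. Subtracting the median moves every colitis difference by 0.13 in WT and 0.19 in KO, and Cry1 then passes 2-fold in WT, for 5 clock genes in place of 4. With a fold of 0.5 on the log2 scale in place of 1, the clock genes past it numbered 7 in place of 4 for colitis in WT, 9 in place of 6 for colitis in KO, 4 in place of 2 for KO against WT in control and 2 in place of 0 in colitis. Most genes of the tables pass a fold of 0.5 in colitis as well, since their median absolute colitis difference was 0.64 in WT and 0.59 in KO. With a fold of 1.5 the count for KO against WT in control was 0 in place of 2. The shares of all genes past these 2 folds were not computed. Leaving out the filter on low values kept 1 of the 3 nearest genes for Dbp and for Ciart, and leaving out the length correction moved the rank of 7 genes in WT control. No paired analysis was possible because the columns of the deposited tables are group means with no replicate numbers, and leaving out single libraries was not run for the same reason. Depth limits Ciart most, with 7.88 reads per library in KO control.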
